A study of Arabidopsis thaliana with 8 samples.

Results

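The regions described here are stretches of the Arabidopsis genome held in the window lists of LSH2 and LOS2 and in none of LSH1, LSH3, G1, LOS1 or TMF. They were selected on the measured windows themselves. Windows of all 7 lists that shared 1 bp or more were merged into 39850 regions, and 1818 of them, called members below, met this rule, 4.56% of the total. The series used ampDAP-seq. A tagged protein, here produced by transcription and translation in vitro, is incubated with amplified fragments of genomic DNA, and what it retains is sequenced. The DNA came from 2-week-old Arabidopsis thaliana seedlings. As background, the 3 LSH proteins come from Arabidopsis, G1 from rice, TMF from tomato, and both LOS proteins from the liverwort Marchantia. Of 8 samples, 7 gave a list, 1 per protein and each the consensus of 3 replicates, and the remaining sample was an input not analysed here.

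ALOG proteins are plant transcription factors that share a DNA-binding domain and take part in shoot, leaf boundary and flower development. LSH2 belongs to the Arabidopsis family of LIGHT SENSITIVE HYPOCOTYLS genes. Amplified DNA carries neither chromatin nor methylation, so a window marks DNA that a protein retained in a tube, and a region called held by a protein is a region in its list. Since each list is a single consensus, no spread between replicates could be measured, read depth is unknown, and the 95% intervals below cover counting error only. The part of background common to both libraries in these regions was not tested.

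The regions were chosen by their windows, so their number is a description. The 1818 regions contained 1831 of the 21486 LSH2 windows (8.52%) and 1826 of the 29555 LOS2 windows (6.18%). They were 12.1% of the 15072 regions that held windows of both proteins. Among the 21 possible pairs of lists, this pair had the most regions held by the pair alone, ahead of LSH2 and LSH3 with 895, LOS1 and LOS2 with 665, LSH3 and LOS2 with 615 and LSH1 and G1 with 540. Relative to the regions that both lists of a pair share, it also came first, with 12.1% against 9.99% for LSH1 and G1 and 6.22% for LSH2 and LSH3. LSH2 and LOS2 were also the longest lists, and the part of list length in this order was not tested. The plot of regions by pair shows how steeply these counts fell.

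**Figure D1:**
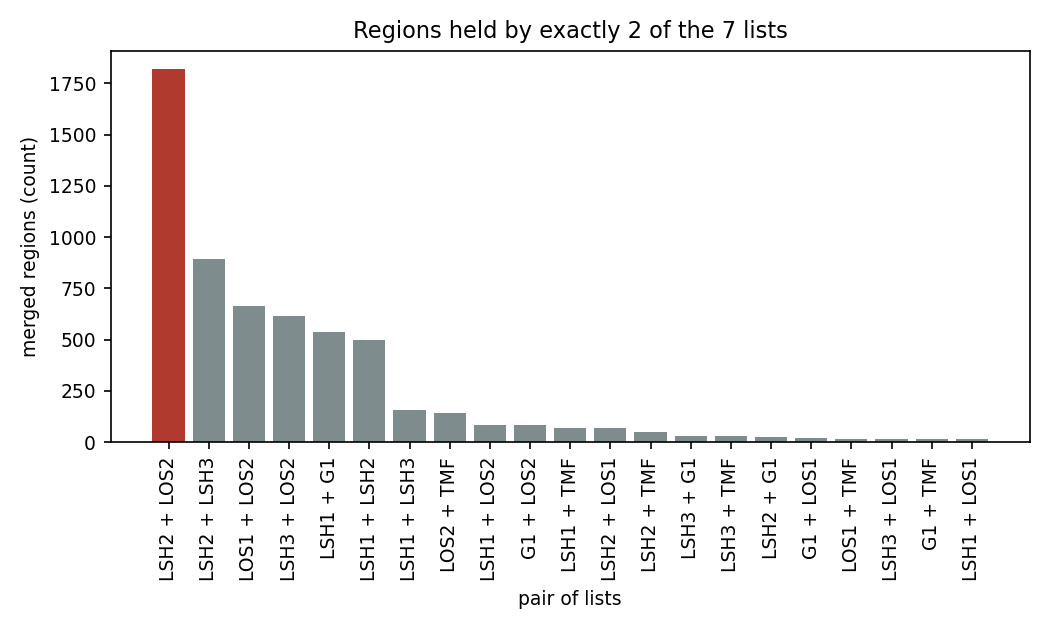
Merged regions held by exactly 2 of the 7 lists, with 1 bar per pair of lists and the count on the vertical axis. LSH2 with LOS2 (red) had 1818 regions, and the next pair, LSH2 with LSH3, had 895.

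In these regions the windows of both proteins sat almost on top of each other. The windows are 200 bp long and the rule required them to overlap. Offsets under 200 bp were therefore fixed by the rule, and the values are a description. The median offset between the centre of the LSH2 window and that of the LOS2 window was 8 bp, with quartiles of 4 and 17 bp. The centres were within 20 bp in 1454 regions (80.0%, 95% interval 78.1 to 81.8%) and identical in 61. Regions of all 7 lists had the same median, 8 bp, with 82.7% (81.3 to 84.0%) within 20 bp. The LOS2 centre had the higher coordinate in 901 regions and the LSH2 centre in 856. Coordinates take no account of strand, so this split cannot show whether a side was preferred. The offset was alike inside genes (median 8 bp, 786 regions) and outside them (median 8 bp, 1032 regions).

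Nearly all regions were simple. In 1798 of them there was 1 window of each protein, 19 had 3 windows and 1 had 4. The median width was 208.5 bp. The region with 4 windows was also the widest, 436 bp on chromosome 4 at 17386745 to 17387180, and lay 1686 bp from RAP2.10 (AT4G36900), which encodes an AP2-type transcription factor also called DEAR4. The next in width were 409 bp in AT2G25950, 406 bp in AT3G03580, 402 bp at 2518 bp from CCR2 (AT2G39180), a gene annotated as CRINKLY4 related, and 400 bp at 202 bp from AT4G28570.

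**Figure D2:**
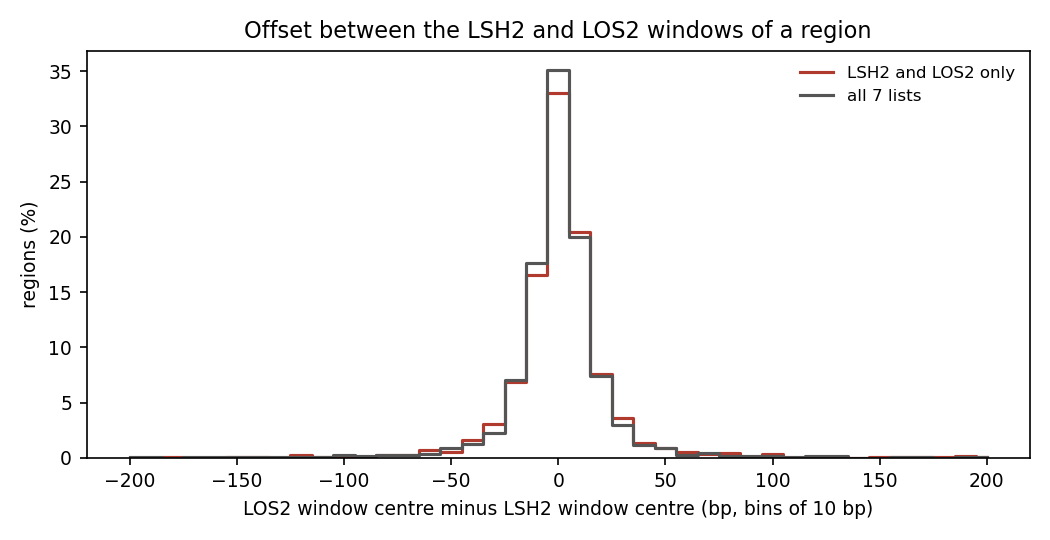
Offset of the LOS2 window centre from the LSH2 window centre within a region, in bins of 10 bp, for the regions of LSH2 with LOS2 alone (red) and the regions of all 7 lists (grey). The central bin held 33.0% of the former and 35.1% of the latter.

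The threshold of 1 bp decided few cases. The member with the least overlap, on chromosome 1 at 6283188 to 6283584, had windows sharing 3 bp, and the next had 7 and 11 bp. Just outside the rule, an LSH2 window and a LOS2 window that each stood alone on chromosome 2 between 10405962 and 10406364 were 3 bp apart, and the next such pairs were 10 and 21 bp apart. Only 27 members (1.49%) had centres 100 bp or more apart.

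The excluded proteins mostly had no window close by. The median gap from a member to the nearest window of any of the 5 other lists was 1768.5 bp, and 83 members (4.57%) had one within 100 bp. A window of another list lay within 1000 bp of 33.0% of members (30.9 to 35.2%), against 44.0% (41.3 to 46.7%) of the regions of LSH2 alone and 40.0% (39.1 to 40.9%) of those of LOS2 alone. By list, the median gap was 2648 bp to LSH3, 2946.5 bp to LOS1, 3256.5 bp to TMF, 3430.5 bp to LSH1 and 6662.5 bp to G1, the shortest list with 6902 windows.

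The position of these regions relative to genes was not used by the rule. Members lay in genes less often than the regions of LSH2 alone, of LOS2 alone and of all 7 lists. The centre fell in a protein-coding gene in 786 of 1818 regions (43.2%, 95% interval 41.0 to 45.5%). Over all 39850 merged regions it did so in 69.7% (69.3 to 70.2%), and in the 13254 other regions with LSH2 and LOS2 in 68.3% (67.5 to 69.0%). The share was 56.7% (54.0 to 59.3%) for the 1323 regions of LSH2 alone, 64.0% (63.1 to 64.9%) for the 11277 regions of LOS2 alone and 72.6% (71.1 to 74.2%) for the 3126 regions of all 7 lists. The difference was -13.5 percentage points from LSH2 alone (95% interval -16.9 to -9.93), -20.7 points from LOS2 alone (-23.2 to -18.3) and -29.4 points from all 7 lists (-32.1 to -26.6). All 3 intervals exclude 0, and each difference had this direction on 5 of 5 chromosomes.

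Other sets of regions with 2 lists had higher shares. Regions of LSH2 with LSH3 alone had 80.0% inside genes (77.3 to 82.5%), those of LOS1 with LOS2 alone 72.3% (68.8 to 75.6%) and those of LSH3 with LOS2 alone 82.0% (78.7 to 84.8%), sets chosen for comparison after the data were seen. The members differed from them by -36.8 points (95% interval -40.1 to -33.2), -29.1 points (-33.1 to -24.9) and -38.7 points (-42.3 to -34.8). Among all 41 combinations of lists with at least 100 regions, LSH2 with LOS2 alone had the lowest share inside genes. The combination next to it was LSH2, LOS1 and LOS2 with 47.0% (44.0 to 50.1%), whose interval overlaps that of the members, and LSH2 alone was the third.

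The share varied with the further protein present. Where LOS1 was added to LSH2 and LOS2, the share was 47.0% in 1019 regions. The members minus these regions gave -3.77 points (95% interval -7.59 to 0.0389), an interval that reaches 0. Adding LSH3 gave 68.5% (64.5 to 72.3%) in 537 regions, adding TMF 70.9% (62.7 to 77.9%) in 134, adding LSH1 67.2% (55.0 to 77.4%) in 64 and adding G1 80.0% (54.8 to 93.0%) in 15. The members minus the regions with LSH3 added gave -25.3 points (-29.7 to -20.6). Taken the same way, the difference was for TMF -27.7 (-35.0 to -19.2), for LSH1 -23.95 (-34.4 to -11.6) and for G1 -36.8 (-49.9 to -11.5). LOS1, the other Marchantia protein, was thus the one list whose addition gave an interval that reached 0.

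**Figure D3:**
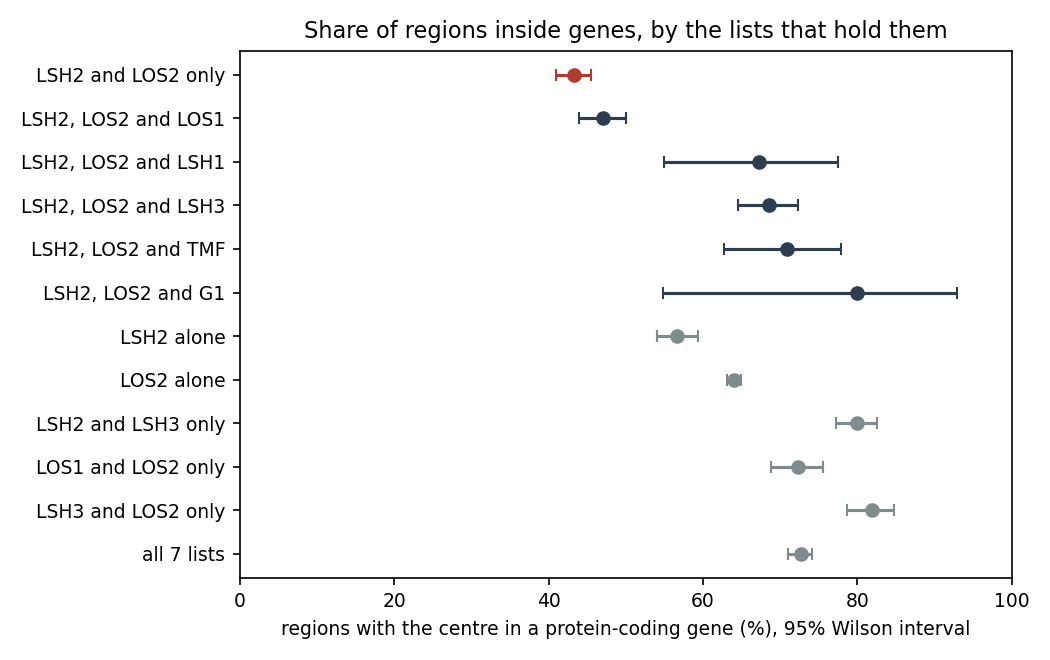
Share of regions with the centre in a protein-coding gene, in percent, with 95% Wilson intervals, by the lists that hold the region. The regions of LSH2 with LOS2 alone (red, 43.2%) and those with LOS1 added (47.0%) lie lowest, and regions with any other list added (dark) or in other sets (grey) lie at 56.7% or above.

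The other 13254 regions with windows of LSH2 and LOS2, from which the members were left out, showed how the share varied with each further list. Regions with LSH3 were in genes in 70.9% of cases and those without it in 55.3%, a difference of 15.6 points (95% interval 13.4 to 17.9). The share was also higher with TMF, by 9.25 points (7.12 to 11.4), with G1, by 7.87 points (6.16 to 9.55), and with LSH1, by 6.92 points (5.33 to 8.50). For LOS1 it went the other way here, with 67.5% in regions that held it and 73.1% in the 1788 that did not. The difference was -5.59 points (-7.78 to -3.33). Leaving members out means that every region without LOS1 held LSH1, LSH3, G1 or TMF. With members kept, the difference for LOS1 was 9.46 points (7.64 to 11.3). Also with members kept, the share with and without LOS1 was 53.4% and 46.6% where LSH3 was absent. Where LSH3 was present, it was 70.5% and 73.5%. The 46.6% comes from 2074 regions, 967 of them in genes. All 1818 members, 786 of them in genes, are among these. That value therefore mostly repeats the members' own share, and the direction for LOS1 without LSH3 rests on the members. These lists overlap strongly, so the values are not independent of each other.

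Gene cover dipped close to the centre. Gene cover was read at points around each region's centre, in steps of 100 bp. For the members it was lowest at the centre itself, 43.2%, rose to 53.4% and 54.0% at 1000 bp on either side and averaged 57.9% at 3000 to 5000 bp. Around regions of all 7 lists it went the other way, from 72.6% at the centre to a mean of 61.3% at 3000 to 5000 bp. Regions of LSH2 alone had a shallow dip, 56.7% against 60.7%. In the 100 kb around a member genes covered a median of 62.5%, the lowest of the 7 classes compared, with 64.5% around regions of LSH2 alone, 65.4% around regions of all 7 lists and 68.0% around regions of LSH2 with LSH3 alone. Neighbourhoods with gene cover under 20% held 6.66% of members (5.60 to 7.90%) and 6.33% of the regions of all 7 lists (5.53 to 7.24%). The share was 6.32% (4.71 to 8.43%) for LOS1 with LOS2 alone, 5.72% (5.31 to 6.16%) for LOS2 alone and 5.06% (4.01 to 6.38%) for LSH2 alone. The intervals of all these classes overlap that of the members. It was lower, 2.57%, for LSH2 with LSH3 alone (1.72 to 3.83%) and 3.41% for LSH3 with LOS2 alone (2.24 to 5.16%).

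**Figure D4:**
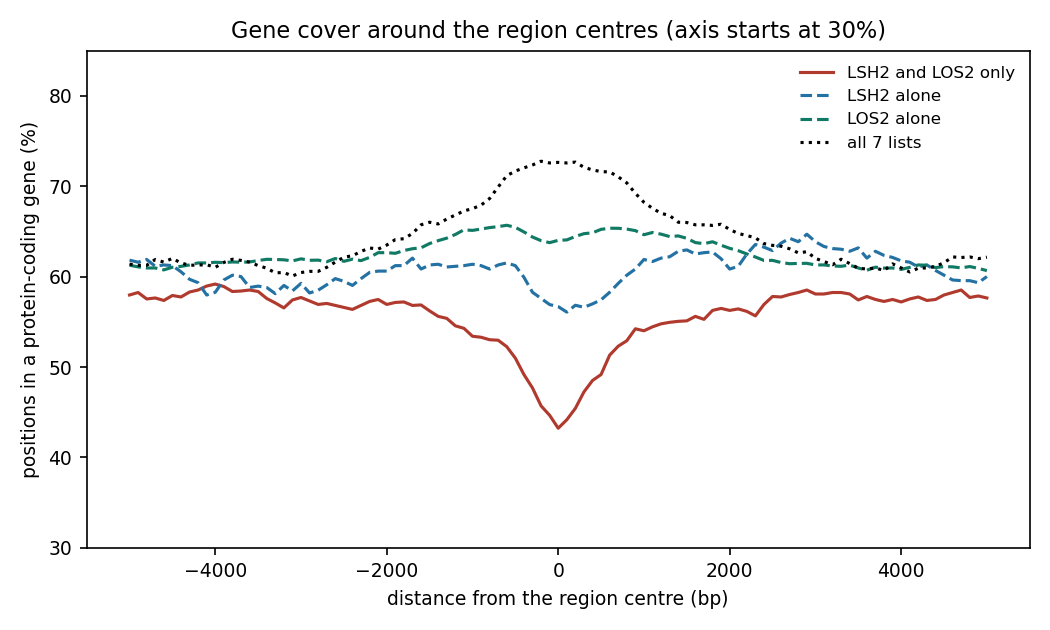
Percentage of positions that lie in a protein-coding gene (vertical axis, starting at 30%) against distance from the region centre in bp. The curve of LSH2 with LOS2 alone dips to 43.2% at the centre, while that of all 7 lists is at 72.6% there, and they come closer together farther out.

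Outside genes the members were spread over the near flank and beyond. Within 1000 bp of a gene lay 573 regions (31.5%, 29.4 to 33.7%), against 24.6% of the regions of LSH2 alone, 19.1% of LOS2 alone and 13.7% of all 7 lists. The differences were 6.95 points (95% interval 3.77 to 10.1), 12.4 points (10.2 to 14.7) and 17.9 points (15.4 to 20.3). More than 2000 bp from any protein-coding gene lay 247 members (13.6%), which was 3.68 points (1.40 to 5.91) above LSH2 alone and 4.95 points (3.13 to 6.85) above all 7 lists. For regions of LOS1 with LOS2 alone the difference there was 2.01 points (-1.04 to 4.77), an interval that includes 0. All these are shares of all regions of a class, inside genes or not, so they also reflect how many regions lay outside. Of the regions outside genes, 247 of 1032 members lay over 2000 bp away. The counts were 131 of 573 for LSH2 alone, 1056 of 4062 for LOS2 alone and 270 of 855 for all 7 lists. On this base, the share over 2000 bp away was lower for members than for all 7 lists. Within 1000 bp lay 573 of 1032 members, 325 of 573 regions of LSH2 alone, 2151 of 4062 of LOS2 alone and 427 of 855 of all 7 lists. That share was not higher for members than for LSH2 alone. Intervals on this base were not computed. The median distance outside genes was 823.5 bp for members and, in the same order, 774.5, 900.5 and 1005.5 bp. Strand was not used, so a flank may be upstream or downstream of its gene.

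Per length of DNA, members were denser between genes than in them. There were 12.2 members per Mb of gene and 18.9 per Mb between genes, a ratio of 1.55. The ratio was 0.901 for LSH2 alone, 0.664 for LOS2 alone and 0.444 for all 7 lists. Of the regions in the LSH2 list, 15.4% of those outside genes were members (14.6 to 16.3%) and 5.48% of those inside (5.12 to 5.87%). In the LOS2 list the shares were 10.5% (9.87 to 11.1%) and 4.07% (3.80 to 4.36%).

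**Figure D5:**
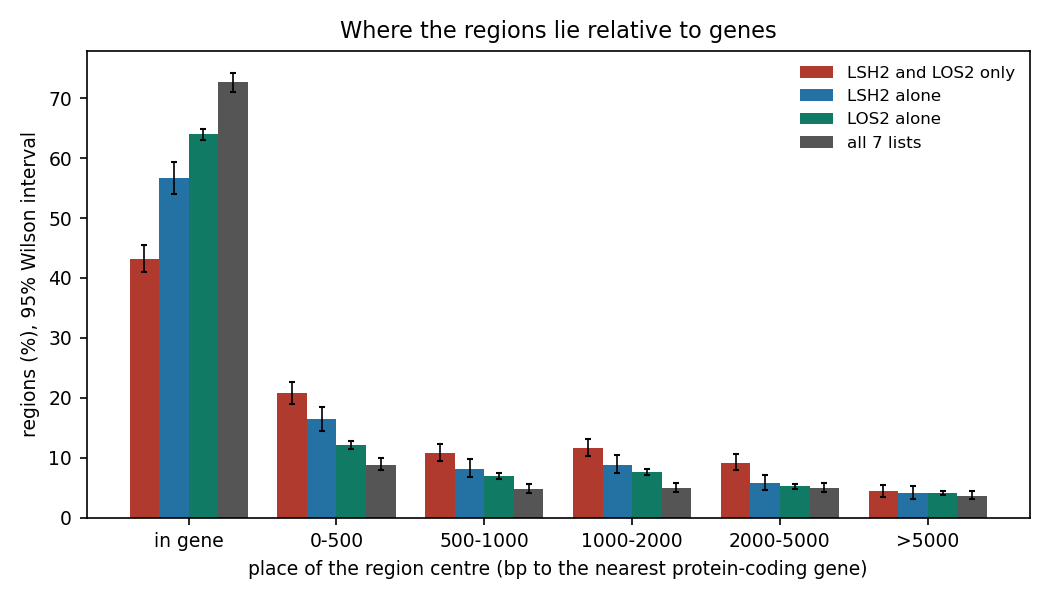
Percentage of regions by the place of their centre, in a protein-coding gene or at a given distance in bp from the nearest one, with 95% Wilson intervals. Members (red) have the lowest bar in genes, 43.2%, and the highest in each interval up to 5000 bp outside them, starting with 20.7% within 500 bp.

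Between genes, members occurred at 21.3 per Mb in spaces of up to 1000 bp, at 27.9 per Mb in spaces of 2000 to 5000 bp and at 9.08 per Mb in spaces longer than 10000 bp. The fall in the longest spaces was shared by the other 3 classes set beside them, with 5.12 per Mb there against 13.6 in spaces of 2000 to 5000 bp for LSH2 alone, 43.7 against 96.4 for LOS2 alone and 11.6 against 17.7 for all 7 lists. Members were found in 952 of the 23810 spaces between protein-coding genes. Among regions outside protein-coding genes, members lay in pseudogenes less often than the regions of LSH2 alone, of LOS2 alone and of all 7 lists. Of the 1032 members outside protein-coding genes, 48 had the centre in an annotated pseudogene (4.65%, 3.53 to 6.11%), against 7.68% for LSH2 alone, 11.6% for LOS2 alone and 17.4% for all 7 lists. The differences were -3.03 points (95% interval -5.74 to -0.623), -6.99 points (-8.51 to -5.25) and -12.8 points (-15.7 to -9.97). The first had this direction on 4 of 5 chromosomes and the others on all of them. Out of all regions of a class, the counts were 48 of 1818 members and 44 of 1323 regions of LSH2 alone. They were 473 of 11277 for LOS2 alone and 149 of 3126 for all 7 lists, and differences on this base were not computed. The share was not the lowest of the 17 combinations with at least 100 regions outside genes, as regions of LSH2, LOS1 and LOS2 had 4.26% and those of LSH2, LSH3 and LOS2 6.51%. Another 19 members lay in annotated long noncoding RNA genes (1.84%, 1.18 to 2.86%).

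All chromosomes carried members at like frequency. Chromosome 1 had 433, chromosome 2 318, chromosome 3 344, chromosome 4 273 and chromosome 5 450, which is 4.14 to 4.98% of all merged regions on each chromosome. The share inside genes ran from 38.4% (33.2 to 43.8%) on chromosome 2 to 45.0% (40.4 to 49.7%) on chromosome 1, with overlapping intervals. In 121 bins of 1 Mb the number of members was 2 to 32, with a median of 15. Neighbouring members were a median of 40174 bp apart, and 50 of 1813 neighbouring pairs lay within 1000 bp.

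Many genes had such a region near them. A member lay in the body or within 2000 bp of 2523 of 27444 protein-coding genes (9.19%), and in the body of 772 (2.81%). Because neighbouring genes share flanks, 879 members were counted for more than 1 gene, and 247 had no gene that close. For 345 of the 2523 genes (13.7%), members were the sole ALOG regions in the gene or its flanks. Of all protein-coding genes, 23732 (86.5%) had a region of any kind there. The like share for other classes of region was not computed, so 13.7% has no background here. Most genes had 1 member, 121 had 2 and 10 had 3.

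The genes with 3 members fell into those with members in the gene and those with members beside it. FAB1D (AT1G34260), a phosphatidylinositol phosphate kinase gene, had all 3 in its body. They spanned 12485573 to 12485773, 12485830 to 12486081 and 12488477 to 12488684 of chromosome 1, and the gene and its flanks held 5 regions of other kinds. AT3G20460 and AT3G44703 also had 3 in the body. ATJ1 (AT1G28210), which encodes a DnaJ-type chaperone, had 2 in its body, at 9856784 to 9856983 and 9858450 to 9858654 on chromosome 1, and 1 at 1212 bp from it. AT1G68570, the transporter gene NPF3.1, had 2 in its body and 1 at 1670 bp. The members outside ATJ1 and AT1G68570 were closer to the neighbouring genes AT1G28200 and AT1G68580. AT3G59670 had 1 in the body and 2 beside it, of which 1 lay in the neighbouring gene AT3G59680 and 1 was closer to AT3G59660.

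SAP (AT5G35770), or STERILE APETALA, a gene needed for flower and ovule development, had 1 member in its body, on chromosome 5 at 13939087 to 13939302. Its other members lay at 1118 bp, inside the neighbouring gene AT5G35760, and at 1895 bp. NRAMP1 (AT1G80830), a manganese and iron transporter gene, had 3 members in a row on the same side, on chromosome 1 at 30376594 to 30376798, 30377305 to 30377504 and 30377718 to 30378049, which is 624, 1332 and 1812 bp from the gene. AT2G33320 likewise had 3 on the same side, at 896, 1228 and 1761 bp, the last of them closer to AT2G33310. AT1G75800 had members at 151 and 770 bp on its lower-coordinate side and at 258 bp on the other. Those at 770 and 258 bp were closer to AT1G75790 and AT1G75810. Of the genes with 2 members, several had both in the body, AUX1 and SAE2 among them. AT1G33612 and NAD-ME1 (AT2G13560), which encodes a mitochondrial malic enzyme, are named because they came first of these by gene identifier.

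In 8 lists of developmental, signalling and broadly expressed genes, 21 of 167 matched genes (12.6%) had a member in the body or within 2000 bp, against 9.19% of all protein-coding genes. Flowering time genes had 6 of 26 and broadly expressed comparison genes 4 of 16. The counts were 2 of 22 for floral identity, 2 of 17 for boundary and KNOX/BELL genes, 2 of 19 for meristem and leaf polarity, 3 of 29 for light and clock genes, 1 of 28 for cytokinin and 1 of 10 for the ALOG genes. These lists are small, and the comparison list had the highest share, 25%.

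Among flowering time genes, SMZ (AT3G54990), an AP2-like repressor of flowering, had a member in its body on chromosome 3 at 20374866 to 20375065, where the windows of both proteins were identical. It was the sole region of any ALOG protein in SMZ or its flanks. FLC (AT5G10140), the MADS-box repressor that responds to vernalization, had a member in its body on chromosome 5 at 3173780 to 3173980, with centres 1 bp apart, beside 3 regions of other kinds. SPL4 (AT1G53160), which promotes phase change, had one at 264 bp. FVE (AT2G19520), a chromatin protein of the autonomous pathway, had one at 1030 bp, inside its neighbour AT2G19530.

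Among floral identity genes, SHP2 (AT2G42830), which acts in carpel and fruit development, had a member in its body on chromosome 2 at 17822446 to 17822650. STK (AT4G09960), an ovule identity gene, had one at 796 bp, on chromosome 4 at 6241976 to 6242179, its sole ALOG region. CUC3 (AT1G76420), a NAC transcription factor gene of organ boundaries, had 2 members, in the body at 28671727 to 28671935 on chromosome 1 and at 1086 bp from it, closer to its neighbour AT1G76410. Its relative CUC2 (AT5G53950) had one at 746 bp, with centres 71 bp apart.

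Of the leaf polarity genes, YAB1 (AT2G45190), a YABBY gene of the lower leaf side, had a member at 166 bp on chromosome 2 at 18630840 to 18631051. KAN1 (AT5G16560), which acts on the same side, had one at 1139 bp. In the light and clock list, COP1 (AT2G32950), a ubiquitin ligase that represses light responses, had one in its body and one at 1500 bp. ZTL (AT5G57360), an F-box photoreceptor of the clock, had one in its body, and PIF4 (AT2G43010), a bHLH factor of growth, had one at 497 bp. ARR5 (AT3G48100), a cytokinin response regulator, had one at 570 bp. The gene of LSH2 itself (AT3G04510) had one at 1409 bp, on chromosome 3 at 1214123 to 1214325, which was closer to its neighbour AT3G04500. In the comparison list, the polyubiquitin gene UBQ10 (AT4G05320) had one in its body with centres 80 bp apart. The ubiquitin gene UBQ5 had one at 354 bp, inside its neighbour AT3G62260. The actin gene ACT7 had one at 1144 bp, inside its neighbour AT5G09820, and ACT2 had one at 1710 bp.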

How the data were processed

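ampDAP-seq was run with 7 tagged ALOG proteins on DNA of Arabidopsis seedlings. Each protein had 3 replicates, and peaks missing from any of them were dropped, according to the design text, so every deposited list is 1 consensus of windows. The submitters' processing notes name MACS2, Bowtie2 and SAMtools. Their versions, the thresholds and the genome build were not given in the sources used here. Deposited lists hold a chromosome, a start and an end per window, without heights or read counts, so depth is unknown. The input was not analysed here.

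Windows of all lists that share 1 bp or more were merged, and regions were sorted by the lists that hold them. Positions were counted from 1. Gene positions came from a RefSeq table of TAIR10.1 with 27444 protein-coding genes on 5 chromosomes. They were used for which genes a region lies in or near, by the region's centre, and are not printed. Shares carry 95% Wilson intervals and differences 95% Newcombe intervals. Both cover counting error of regions in these lists and not the spread between experiments. No p-value could be had from 1 list per protein. The members and gene lists were chosen with earlier results of these data known. The genes named were the 12 with the most regions, up to 4 per gene list, and those at the 5 widest regions. Ties among the 12 were broken by the number in the gene body, then by gene identifier. Genes of the families were named after their values were seen. A planned rule on promoters, and motif searches, needed sequence or strand and were not run. Alternatives covered the overlap that joins windows, the distance to other windows, each list not used, the gene definition, the flank and each chromosome left out. Calculations ran under Python 3.11.15 with scipy 1.17.1, pandas 2.3.3 and numpy 2.4.6, and the merging and placing were tested on simulated lists with planted regions.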

Additional observations from a re-analysis of the deposited data

How the results depend on the processing

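The differences in the share inside genes from LSH2 alone, LOS2 alone and all 7 lists kept their direction in all 15 alternative settings. These gave 45 values, 15 for each of 3 differences, from -9.15 to -35.4 percentage points, all with an interval without 0. The settings share regions, and 5 of them each only left out 1 chromosome. These alternatives were added after seeing the data. The share inside genes itself, 43.2%, became 37.3% when no other window was allowed within 1000 bp and 49.0% without the LSH3 list. It was 48.8% when any overlap with a gene counted and 47.3% with all genes of the table. By construction these last 2 settings can only add regions inside genes. Leaving out the LSH3 list lets in the regions of LSH2, LOS2 and LSH3, of which 68.5% lay in genes. The cause of the fall to 37.3% was not tested. The number of regions, 1818, became 2842 without the LOS1 list, which drops a condition, and was 1218 to 2357 in the other 9 settings. Genes with a member numbered 772 when only the gene body counted and 1728 with a flank of 1000 bp. Motif alternatives were not run, as no sequence was used. No paired analysis was possible because each protein has 1 list. Without read counts, depth cannot be weighed, and weak binding by an excluded protein may be missed.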

Other observations

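Gene families defined by gene symbol, chosen after the data were seen, carried members about as often as all protein-coding genes (9.19%). A member lay in or within 2000 bp of 22 of 234 cytochrome P450 genes (9.40%, 95% Wilson interval 6.29 to 13.8%), 13 of 125 MYB genes (10.4%, 6.18 to 17.0%), 11 of 100 NAC genes (11%, 6.25 to 18.6%), 10 of 71 WRKY genes (14.1%, 7.83 to 24.0%), 5 of 80 SAUR genes (6.25%, 2.70 to 13.8%) and 6 of 41 homeobox genes of the HB names (14.6%, 6.88 to 28.4%). In the 5 smaller families (bHLH, AP2/ERF, heat shock, expansin and DOF names) the counts were 2 to 3. Every interval includes 9.19%. Of the WRKY genes, WRKY41, WRKY19 and WRKY48 had the member in the gene body, while WRKY46, WRKY53 and WRKY70, known from defence and senescence, had it in the flank. Among the P450 genes, CPD and ROT3, both of brassinosteroid synthesis, and CYP707A2 and CYP707A3, which break down abscisic acid, had members, in the body for CPD and CYP707A2.

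The members farthest from any protein-coding gene were on chromosome 5 at 11458032 to 11458241 and at 11469784 to 11470026, about 76480 and 71558 bp from the nearest gene, and on chromosome 4 at 3426593 to 3426799, 65180 bp away. On both chromosomes these are stretches with few annotated genes.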
